A study of Mus musculus with 2 samples.

Results

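The 9 genes described here encode receptors and ligands of the TNF superfamily that costimulate lymphocytes and antigen-presenting cells. They were chosen by gene symbol from the 32589 genes listed in both libraries. The receptors were *Tnfrsf4* (OX40), *Tnfrsf9* (4-1BB), *Tnfrsf18* (GITR), *Cd27* and *Cd40*, and the ligands were *Tnfsf4* (OX40 ligand), *Tnfsf9* (4-1BB ligand), *Cd70* and *Cd40lg* (CD40 ligand). Single-cell RNA-Seq had been done on tumor-bearing livers of shYT mice, in which a CAG-rtTA3 driver, active throughout the body, drives shRNAs targeting *Yap1* and, for TAZ, *Wwtr1*, once doxycycline is fed. CCA had been induced by HDTVI (hydrodynamic tail vein injection) of plasmids for NICD, an activated Notch receptor, and myr-AKT, an activated kinase. The shRNAs were switched on at day 25, and the animals received either PBS or, on days 26, 29 and 32, an anti–PD-1 antibody (clone RMP1-14), with cells taken on day 33. No dosing days are listed for PBS. Each group was 1 library, so each comparison set 1 library against another, with no replicate check and no test. The labels do not give the shRNA line, the sex or how animals were combined in a library, and the barcodes do not tell animals apart. Both groups carried the shRNAs, and depletion of YAP/TAZ was therefore not compared.

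After the T cell receptor and CD28 have been engaged, OX40, 4-1BB and GITR appear or rise on activated T cells, and Tregs, the FOXP3-positive suppressor T cells, carry OX40 and GITR at rest. CD27 is present on most resting T cells, and CD40 on B cells, macrophages and dendritic cells. Each receptor is bound by the ligand of the matching name (CD27 by CD70), recruits TRAF adaptor proteins and activates NF-κB, which favors survival, cytokine production and, for CD40, maturation of antigen-presenting cells.

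On mouse genome build GRCm38, *Tnfrsf4* (chr4:156013843-156016612) and *Tnfrsf18* (chr4:156026164-156028895) are neighbors on the plus strand with 9551 bases between them, and *Tnfrsf9* (chr4:150914562-150946102) lies on the same chromosome. *Tnfsf9* (chr17:57105325-57107757, plus strand) and *Cd70* (chr17:57145997-57149777, minus strand) are 38239 bases apart. The other members are *Cd27* (chr6:125232622-125237010, minus strand), *Cd40* (chr2:165055627-165072948), *Tnfsf4* (chr1:161395409-161418410) and *Cd40lg* (chrX:57212143-57224042).

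Sequences upstream of a start site were available from RefSeq (GRCm38.p6) for *Tnfrsf4*, *Tnfrsf9*, *Tnfrsf18* and *Cd27*, with 5 start sites in all. They were searched on both strands, over the 100 bases before the start, for the κB consensus bound by NF-κB and for the AP-1 motif TGANTCA, since both factors act downstream of T cell activation. Only 1 start site held a match, the second of *Tnfrsf9*. There, 2 overlapping κB matches spanned bases -43 to -33 and an AP-1 match spanned bases -15 to -9, counted from the start. Over all 32851 start sites, 1.50% held a κB match and 2.73% an AP-1 match in the same window. All 100 bases of the *Tnfrsf18* window, 81 of the second *Tnfrsf9* window and 16 of the *Tnfrsf4* window lay in annotated exons. The *Tnfrsf18* window and both *Tnfrsf9* windows lay within the gene spans given above. The stretches shown are those of *Tnfrsf9* and *Tnfrsf4*, the receptors with the largest differences in CD8 T cells, printed 5′ to 3′ with matches in capitals. Bases that the annotation places in an exon are left out except for the matches, which lie in an annotated exon of another *Tnfrsf9* transcript and are shown with 5 bases on either side.
Tnfrsf9, second start, κB matches (chr4:150927951-150927971, plus strand): cagctGGGGATTTCCCaggag
Tnfrsf9, second start, AP-1 match (chr4:150927979-150927995, plus strand): tcagtTGAGTCAcaggt
Tnfrsf9, first start, upstream 100 bases (chr4:150920055-150920154, plus strand): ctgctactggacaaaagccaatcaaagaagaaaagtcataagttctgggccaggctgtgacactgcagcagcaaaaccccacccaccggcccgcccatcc
Tnfrsf4, upstream 84 bases (chr4:156013611-156013694, plus strand): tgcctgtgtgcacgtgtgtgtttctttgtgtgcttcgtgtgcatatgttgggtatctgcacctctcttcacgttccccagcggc

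The PBS library held 19397 barcodes and the library of anti–PD-1-treated tumors 19451, of which 15531 and 16360 were kept as cells, at a median of 3159 and 2990 UMIs (unique molecular identifiers, 1 for each captured transcript). A marker gate, with T cells split further, gave 16 cell classes with at least 50 cells in both libraries. They were all T cells, the 4 subsets of these (Tregs, CD8 T cells, conventional CD4 T cells and other T cells) and 11 further classes, and counts below use the 4 subsets and the 11 classes. Markers held out of the gate were higher in their class than outside it in 106 of 106 checks, by as little as 1.31-fold (conventional CD4 T cells with PBS). The class of other T cells was not checked. Depth within a class differed between the libraries. The median was 2909 UMIs with PBS and 4140 with anti–PD-1 in CD8 T cells, 1564.5 and 2095 in neutrophils, and 2453 and 1637 in tumor and biliary epithelial cells. The libraries shared 219 barcodes, 145 of them kept cells. The libraries differed in *Xist* UMIs (18452 with PBS and 11 with anti–PD-1) and in Y-linked UMIs (3113 and 15323), so the sex make-up and the treatment cannot be told apart. Where numbers allowed, the comparison was repeated among male cells, meaning those that had Y-linked UMIs but lacked *Xist*. Levels are given as CPM, the UMIs of a gene per 1000000 UMIs of the class, and a fold is the anti–PD-1 level over the PBS level unless "lower" is written. Ranges in parentheses are exact 95% intervals, Poisson for levels, binomial for folds and Clopper-Pearson for shares, and cover counting error only.

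*Tnfsf9*, *Tnfrsf4*, *Tnfrsf9*, *Cd40* and *Cd27* were at least 2-fold higher with anti–PD-1 in some classes, *Cd27* only where it stayed below 20 CPM. The share of lower pairs was not above that of all genes. A member was read in a class where it had at least 30 UMIs over both libraries, which held for 73 of 135 member-class pairs. Of these 73 pairs, 28 (38.4%) were at least 2-fold higher with anti–PD-1, beside 4.38% of all 147171 gene-class pairs. Only 3 pairs (4.11%) were at least 2-fold lower, beside 6.02% of all pairs, and 42 lay within 2-fold. A pair could pass the minimum through the library in which it was high, as *Tnfrsf4* did in B cells (5 and 45 UMIs) and neutrophils (6 and 86), so these counts are a description and support nothing by themselves. With at least 30 UMIs required in each library, a minimum set after the data had been seen, 11 of 39 pairs were higher and 0 lower, beside 2.97% and 2.53% of the 103505 gene-class pairs that met it. By gene, *Tnfsf9* was higher in 9 of 13 classes, *Tnfrsf4* in 7 of 9, *Tnfrsf9* in 6 of 12, *Cd27* in 3 of 10, *Cd40* in 3 of 10 and *Tnfrsf18* in 0 of 13. The median of all measured genes lay between -0.34 and 0.06 on the log2 scale across classes, so a fold of 1 was itself above the median gene in most classes.

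Of the 28 higher pairs, 15 stood below 20 CPM even with anti–PD-1, 5 of them for *Tnfrsf4*, 4 for *Tnfrsf9*, 3 for *Cd27*, 2 for *Cd40* and 1 for *Tnfsf9*. They included low levels in cells not known for the gene, such as neutrophils, in which *Tnfrsf4* went from 3.13 to 13.4 CPM. Free RNA carries such UMIs, and the 7 T cell gate markers, none at 0, summed to 146 and 228 CPM in neutrophils; its part in the low pairs was not tested. With 5 CPM added to each level, 15 pairs remained at least 2-fold higher. The other 13 higher pairs reached 20 CPM with anti–PD-1, but 7 of them were below 20 CPM with PBS and so passed this level only through the library in which they were high, and their number supports nothing. Of the 13, 5 fell under 2-fold in at least 1 alternative (*Tnfrsf9* in CD8 T cells, *Tnfrsf4* in other T cells, and *Tnfsf9* in conventional CD4 T cells, other T cells and fibroblasts).

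**Figure D1:**
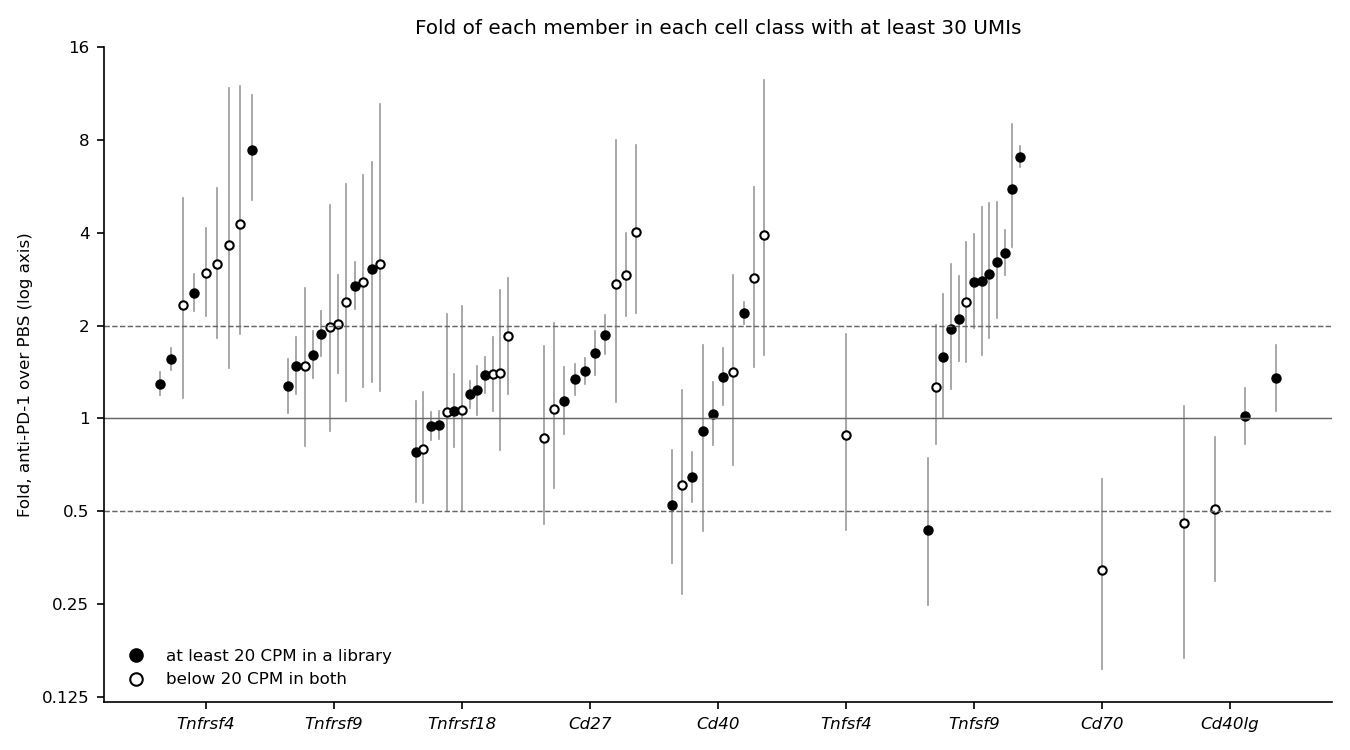
Fold of each member (anti–PD-1 over PBS, log axis) in every counted cell class with at least 30 UMIs, as points with exact 95% counting intervals. Mature dendritic cells, not counted, are not plotted. Filled points reached at least 20 CPM in a library, and open points did not. The *Tnfrsf18* points lie between 0.776 and 1.85, while those of *Tnfsf9* run from 0.435 in cDC1 to 7.06 in monocytes and macrophages.

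*Tnfrsf4* encodes OX40, which sustains activated CD4 T cells and is prominent on tumor Tregs. In Tregs it went from 779 CPM (729 to 832) with PBS to 1215 CPM (1160 to 1271) with anti–PD-1, a 1.56-fold higher level (1.44 to 1.69). In conventional CD4 T cells it went from 349 to 452 CPM, or 1.30-fold (1.19 to 1.41). Tregs thus held the highest level of the counted classes in both libraries. Conventional CD4 T cells, other T cells and CD8 T cells followed, and no neighbors among these 4 had overlapping intervals. Mature dendritic cells, not counted at 55 and 47 cells, held 256.4 CPM (199.5 to 324.5) with PBS and 192 CPM (148.5 to 244.2) with anti–PD-1.

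The largest *Tnfrsf4* fold was in CD8 T cells, which started near the level seen in the counted classes that are not T cells. There it was 8.90 CPM (5.96 to 12.8) with PBS and 66.1 CPM (60.2 to 72.4) with anti–PD-1, 7.43-fold higher (5.10 to 11.2). The 29 UMIs of the PBS library lay in 14 of 939 cells and the 468 of the anti–PD-1 library in 161 of 1375 cells. After every cell had been thinned to 1000 UMIs, 0.644% of CD8 T cells with PBS and 3.97% (3.00 to 5.15) with anti–PD-1 had a *Tnfrsf4* UMI. Neutrophils, which should lack it, gave 0.293% and 1.09%, so the PBS share overlaps background and the anti–PD-1 share stands above it. Unthinned, the CD8 shares were 1.49% and 11.7% and those of neutrophils 0.354% and 2.04%. Thinning left out cells under 1000 UMIs, 8 and 15 CD8 T cells and 107 and 77 neutrophils. Among male cells, the CD8 levels were 3.56 CPM, from 1 UMI in 77 cells, and 67.5 CPM in 801 cells.

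In CD8 T cells, 3 of 7 measured members were at least 2-fold higher (*Tnfrsf4*, *Tnfrsf9* and *Tnfsf9*), beside 3.68% of all genes there, and none was 2-fold lower, beside 5.24%. CD8 T cells were those with a *Cd8a* or *Cd8b1* UMI and none of *Cd4* or *Foxp3*. Other T cells, which lack a clear CD4 or CD8 label, went from 72.0 to 184 CPM of *Tnfrsf4*, a 2.56-fold difference (2.24 to 2.94).

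*Tnfrsf9* encodes 4-1BB, an inducible receptor that marks recently stimulated CD8 T cells and NK cells. In CD8 T cells it went from 47.0 CPM (39.8 to 55.0) to 127 CPM (118 to 135), 2.69-fold higher (2.27 to 3.22). This fold was 1.83 when each cell counted equally and 3.15 among male cells. The share of CD8 T cells with a UMI at 1000 UMIs per cell was 3.65% (2.54 to 5.07) with PBS and 6.18% (4.96 to 7.59) with anti–PD-1, against 0.195% and 0.749% in neutrophils. Unthinned, 99 of 939 and 255 of 1375 CD8 T cells had a *Tnfrsf9* UMI.

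Tregs held the most *Tnfrsf9* in both libraries, at 171 CPM (148 to 197) with PBS and 322 CPM (294 to 351) with anti–PD-1, or 1.88-fold. The Treg difference was not alike in every setting. The share of Tregs with a *Tnfrsf9* UMI was 20.8% (15.9 to 26.4) and 21.5% (16.8 to 26.8) at 1000 UMIs per cell, 7.54% and 16.5% at 500 UMIs and 40.9% and 52.3% unthinned. Each thinned share was 1 random draw, so depth and the draw cannot be told apart. The fold was 0.804 when cells were gated and summed at 1000 UMIs each, a setting that also gated the cells anew. NK cells and ILC1, the group 1 innate lymphocytes, ranked second, at 115 and 170 CPM (1.48-fold, 1.20 to 1.84), and their share with a UMI was 7.63% and 13.4%. Conventional CD4 T cells (63.8 and 81.2 CPM) and other T cells (49.3 and 79.3 CPM) did not differ from each other beyond their intervals in either library. Among male cells conventional CD4 T cells went the other way, from 110 to 79.9 CPM (0.726-fold, 0.487 to 1.12, against 1.27 in all cells). Endothelial cells were read on 19 and 11 *Tnfrsf9* UMIs, in 9 of 484 and 8 of 91 cells, at 7.62 and 23.3 CPM (3.06-fold, 1.31 to 6.76).

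Cells with a *Tnfrsf9* UMI were compared with cells without one, in each library at 1000 UMIs per cell. Of CD8 T cells with anti–PD-1, 16 of 84 with a *Tnfrsf9* UMI (19.0%, 11.3 to 29.1) also had a *Tnfrsf4* UMI, against 38 of 1276 without (2.98%, 2.12 to 4.07). With PBS the counts were 0 of 34, which allows a share of up to 8.82% (3 cells of 34; the exact interval reaches 10.3%), and 6 of 897. Of Tregs with anti–PD-1, 49 of 60 with a *Tnfrsf9* UMI (81.7%, 69.6 to 90.5) also had a *Tnfrsf4* UMI, against 116 of 219 without (53.0%, 46.1 to 59.7). With PBS these Treg shares were 59.6% and 48.0%, with overlapping intervals. Of Tregs with anti–PD-1, 60.0% with a *Tnfrsf9* UMI and 36.5% without had a *Tnfrsf18* UMI, which with PBS were 38.5% and 40.9%, with overlapping intervals. The intervals of these 3 pairs with anti–PD-1 did not overlap. Those for *Tnfrsf18* in CD8 T cells (17.9% and 9.88%) and for *Cd27* in CD8 T cells (27.4% and 18.3%) and Tregs (33.3% and 22.4%) did. With PBS the *Cd27* shares were 14.7% and 14.5% in CD8 T cells, and whether the libraries differed in this was not tested.

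**Figure D2:**
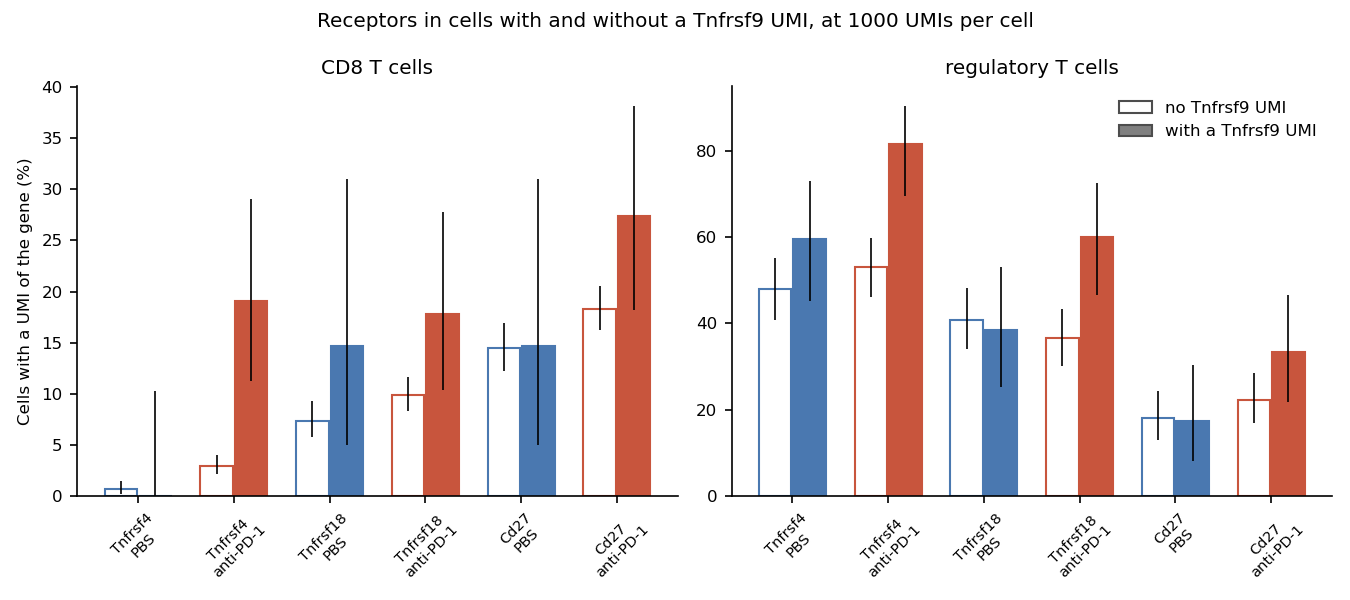
Share of CD8 T cells (left) and Tregs (right) with a UMI of *Tnfrsf4*, *Tnfrsf18* or *Cd27*, among cells without (open bars) and with (filled bars) a *Tnfrsf9* UMI, at 1000 UMIs per cell. Bars start at 0, lines are exact 95% intervals, and the vertical scales of the panels differ. With anti–PD-1 the *Tnfrsf4* share was 19.0% against 2.98% in CD8 T cells and 81.7% against 53.0% in Tregs.

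The CD8 T cells with a *Tnfrsf9* UMI in the anti–PD-1 library also differed in several effector and memory genes. *Ifng*, the gene of interferon-γ, stood at 762 CPM in these 84 cells and 114 CPM in the other 1276, 6.66-fold higher (4.88 to 8.99). *Lag3* and *Pdcd1*, inhibitory receptors of stimulated T cells, were 2.89-fold (1.67 to 4.75) and 2.16-fold (1.39 to 3.24) higher. *Ccr7*, a lymph node homing gene of naive and central memory cells, stood at 95.2 CPM against 377 CPM. *Tcf7*, a gene of memory-like cells, was lower (0.553-fold, 0.292 to 0.958), and *Nr4a1* did not differ beyond counting error (1.29-fold, 0.924 to 1.77). In the PBS library *Ifng* was 147 against 66.9 CPM on 5 and 60 UMIs, a 2.20-fold ratio with an interval of 0.689 to 5.42. The PBS intervals of *Lag3* (1.34-fold, 0.269 to 4.12), *Ccr7* (0.480-fold, 0.0574 to 1.77), *Tcf7* (0.981-fold, 0.465 to 1.83) and *Nr4a1* (0.754-fold, 0.0895 to 2.83) also included 1. *Pdcd1* there was at 2.15-fold (0.904 to 4.41) on 8 and 98 UMIs, and *Gzmb* (2.92-fold, 2.05 to 4.06) and *Tox*, an exhaustion factor (2.36-fold, 1.32 to 3.94), were higher in the 34 PBS cells with a *Tnfrsf9* UMI, as they were with anti–PD-1 (1.88-fold, 1.50 to 2.33, and 2.29-fold, 1.48 to 3.41).

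*Tnfrsf18* encodes GITR, a receptor of Tregs and activated T cells. Its level in Tregs was 543 CPM (501 to 587) with PBS and 517 CPM (482 to 555) with anti–PD-1, a ratio of 0.953 (0.857 to 1.06). In conventional CD4 T cells it was 259 and 245 CPM (ratio 0.946, 0.851 to 1.05), and in all T cells together 204 and 206 CPM (ratio 1.01, 0.954 to 1.06). These intervals lie within 2-fold in either direction. The direction of so small a difference depended on the scale, since all measured genes had a median fold of 0.876 in T cells.

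CD8 T cells (88.4 and 122 CPM, 1.38-fold, 1.21 to 1.58) and NK cells and ILC1 (161 and 198 CPM, 1.23-fold, 1.03 to 1.48) had somewhat more *Tnfrsf18* with anti–PD-1. Among male cells the CD8 fold was 2.20 (1.35 to 3.88), on 16 UMIs in 77 PBS cells. At equal depth 40.4% and 41.6% of Tregs had a UMI, and 1.56% and 1.27% of neutrophils did. cDC2 held 42.1 and 44.6 CPM. Summed over all kept cells, *Tnfrsf18* was 1.49-fold higher (1.42 to 1.56) although it was 1.01-fold in T cells, and T cells held 13.8% of all kept UMIs with PBS and 21.0% with anti–PD-1. The folds of the tandem neighbors thus differed in the same Tregs, with *Tnfrsf4* at 1.56-fold and *Tnfrsf18* at 0.953-fold and no overlap of their intervals. At equal depth, however, the shares of Tregs with a *Tnfrsf4* UMI, 50.4% (44.0 to 56.8) and 59.1% (53.1 to 65.0), had overlapping intervals.

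*Cd27* encodes a receptor present before activation that supports T cell survival and memory. It was higher with anti–PD-1 in each T cell subset, by less than 2-fold. In CD8 T cells it went from 167 CPM (154 to 182) to 238 CPM (227 to 250), 1.42-fold (1.29 to 1.57). In Tregs it went from 192 to 312 CPM (1.63-fold, 1.39 to 1.92).

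The widest *Cd27* difference among T cells was in conventional CD4 T cells, from 112 to 209 CPM (1.87-fold, 1.62 to 2.16), and among male cells it passed 2-fold there (2.33-fold, 1.54 to 3.67). Other T cells went from 128 to 171 CPM (1.34-fold), and NK cells and ILC1 from 88.3 to 101 CPM, where the interval of the ratio (0.887 to 1.47) included 1. At equal depth the share of conventional CD4 T cells with a *Cd27* UMI was 11.04% (8.76 to 13.7) and 17.1% (14.5 to 19.9), against 0.684% and 0.525% of neutrophils. The 3 classes with at least 2-fold more *Cd27* (monocytes and macrophages, Kupffer cells, and tumor and biliary epithelial cells) held at most 10.4 CPM.

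**Figure D3:**
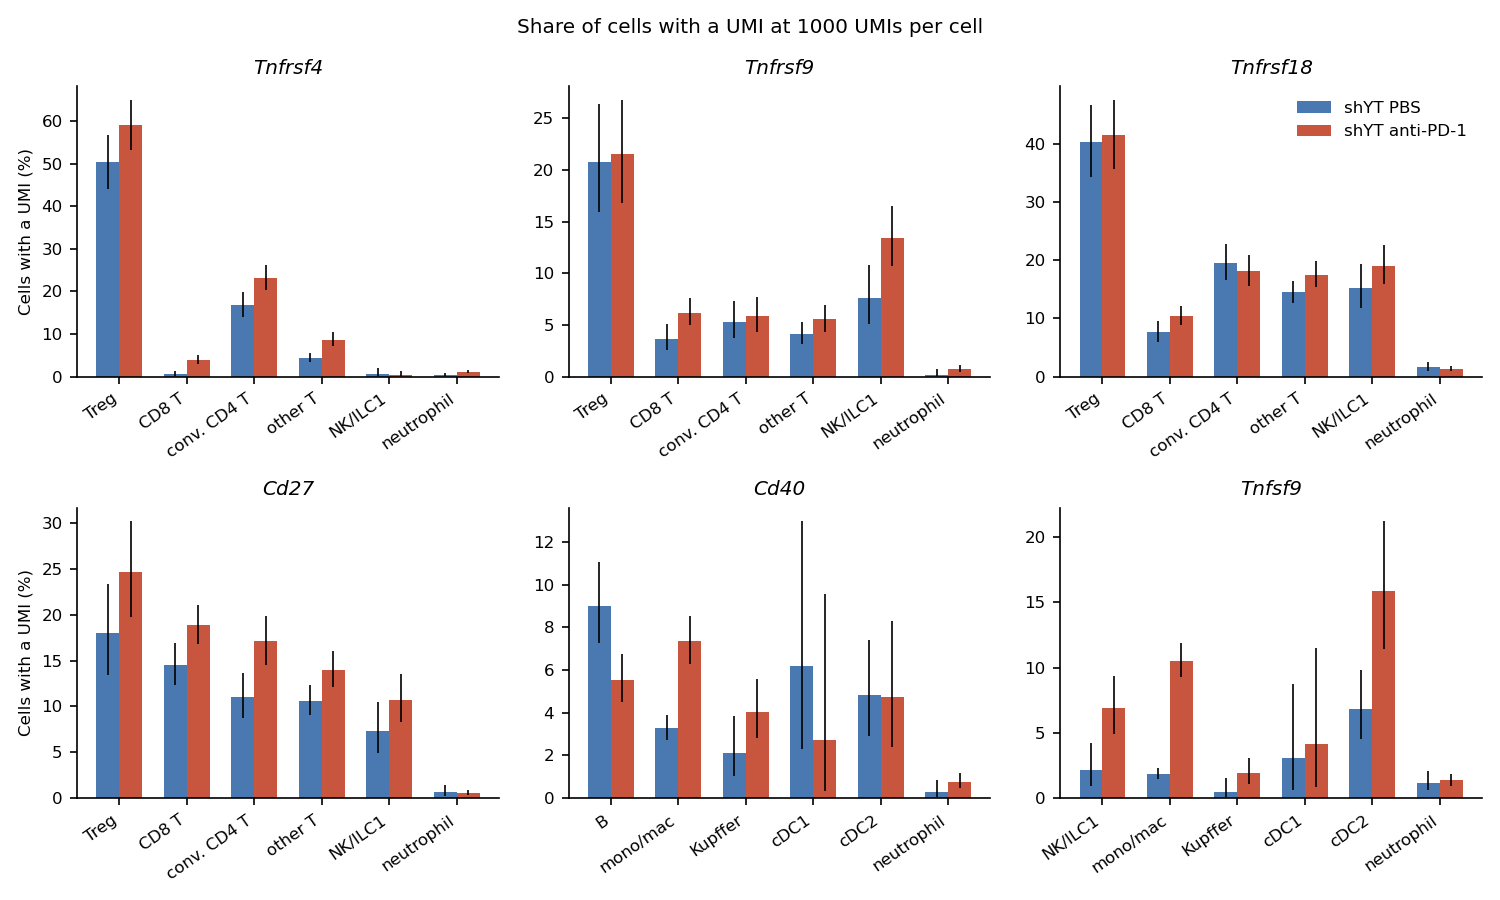
Share of cells with a UMI of 6 members in selected classes, after every cell was thinned to 1000 UMIs, with exact 95% intervals. Blue bars are the PBS library and red bars the anti–PD-1 library, each panel starts at 0 and has its own scale, and neutrophils stand at the right of each panel as a background class. For *Tnfsf9*, whether neutrophils are a floor is not known. *Tnfsf9* goes from 1.85% to 10.5% of monocytes and macrophages.

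*Cd40* encodes the receptor through which CD4 T cells license antigen-presenting cells. It was higher in monocytes and macrophages with anti–PD-1 and lower in B cells. Monocytes and macrophages went from 32.2 CPM (30.3 to 34.2) to 70.7 CPM (67.1 to 74.4), 2.20-fold higher (2.03 to 2.38), and from 3.26% to 7.35% of cells with a UMI at equal depth (649 of 3697 and 711 of 2174 cells unthinned), against 0.293% and 0.749% of neutrophils. B cells went from 91.1 CPM (78.6 to 105) to 58.8 CPM (52.4 to 65.8), 1.55-fold lower (1.29 to 1.86), and from 9.02% to 5.55% of cells (15.3% and 14.0% unthinned).

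The mix of macrophages differed between the libraries, and *Cd40* was compared in 2 parts of the class, a split chosen after the data had been seen. Cells with at least 2 *Ly6c2* UMIs and no *Ms4a7* UMI, the monocyte side, held 37.8 and 81.2 CPM of *Cd40* (2.15-fold, 1.63 to 2.86) in 238 and 340 cells. Cells with *Ms4a7* and no *Ly6c2*, the mature macrophage side, held 33.4 and 74.9 CPM (2.25-fold, 2.03 to 2.49) in 2570 and 902 cells. The *Cd40* difference was thus of like size on both sides. In the whole class, 8 of 14 dissociation stress genes were at least 2-fold higher, beside 5.63% of all genes, with a median fold of 2.47. Their part in the *Cd40* difference was not tested.

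Kupffer cells, the resident liver macrophages, held 28.0 and 38.1 CPM of *Cd40* (1.36-fold, 1.10 to 1.69). cDC1, which present antigen to CD8 T cells, had 1.91-fold less (1.26 to 2.94), at 80.7 and 42.1 CPM from 62 and 39 UMIs. Of the 62, 19 came from 1 cell, and cDC1 with a *Cd40* UMI numbered 15 of 98 and 21 of 73. cDC2 did not differ beyond counting error, at 56.8 and 59.0 CPM (ratio 1.04, 0.818 to 1.31). With PBS, *Cd40* followed the order B cells, cDC1 and cDC2, with overlap between neighbors, and all 3 lay above monocytes and macrophages. With anti–PD-1 the order was monocytes and macrophages, cDC2, B cells, cDC1 and Kupffer cells, and the intervals of all neighbors overlapped. Mature dendritic cells held more than any of these, 227 CPM (173 to 291) and 335 CPM (276 to 402), but they numbered 55 and 47 cells and were not counted.

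*Tnfsf9*, the ligand of 4-1BB made by activated antigen-presenting cells, showed the largest difference of all members in monocytes and macrophages. They went from 23.3 CPM (21.7 to 25.0) with PBS to 164.5 CPM (159 to 170) with anti–PD-1, 7.06-fold higher (6.52 to 7.64). Of these UMIs, 64.4% with PBS and 55.4% with anti–PD-1 lay in 5% of the cells, with up to 15 and 60 in 1 cell. The intervals do not cover this unevenness between cells. At equal depth 1.85% (1.44 to 2.34) and 10.5% (9.28 to 11.9) of the cells had a UMI, against 1.17% (0.61 to 2.04) and 1.35% of neutrophils. The PBS intervals overlapped. Unthinned, 459 of 3697 and 729 of 2174 cells did. The *Ly6c2* side went from 41.1 to 163 CPM (3.96-fold, 3.09 to 5.13) and the *Ms4a7* side from 20.9 to 132 CPM (6.30-fold, 5.67 to 7.01). Both folds were below that of the whole class, and the cells of neither side were not compared on their own. These sides held 75 and 502 of the 770 PBS UMIs and 417 and 1194 of the 3449 with anti–PD-1, the rest being in cells of neither side. Among male cells the class went from 17.6 to 171 CPM, 9.69-fold (7.63 to 12.5).

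In monocytes and macrophages, 5 of 7 measured members were at least 2-fold higher, beside 5.63% of all genes there, and *Cd40lg* was 2-fold lower on 24 and 7 UMIs, beside 6.37%. Of the 5, only *Cd40* and *Tnfsf9* stood above 20 CPM, while *Tnfrsf4* (5.39 CPM), *Tnfrsf9* (3.43 CPM) and *Cd27* (5.91 CPM) were low even with anti–PD-1. Within the anti–PD-1 library, the 228 cells with a *Tnfsf9* UMI at equal depth held more *Nfkbia*, an NF-κB target and inhibitor (2320 against 1565 CPM, 1.48-fold, 1.35 to 1.63), and more *Tnf* (1.76-fold, 1.38 to 2.23) than the other 1935. *Cxcl9*, an interferon-γ target, did not differ beyond counting error (0.955-fold, 0.750 to 1.20). In the PBS library, with 68 such cells, *Nfkbia* was at 1.12-fold (0.776 to 1.56) and *Tnf* at 1.43-fold (0.610 to 2.85), both with intervals that include 1, and *Cxcl9* was lower (0.380-fold, 0.103 to 0.978, on 4 UMIs). *Ly6c2* was higher in cells with a *Tnfsf9* UMI with PBS (2.36-fold, 1.59 to 3.37) and lower in them with anti–PD-1 (0.837-fold, 0.705 to 0.988). In 14 dissociation stress genes, which handling of the tissue can induce, the median fold in this class was 2.47, with 8 of 14 at least 2-fold higher. Stress genes thus moved with *Tnfsf9* between the libraries, and their part in it was not tested.

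cDC2, which present antigen to CD4 T cells, held 68.3 CPM of *Tnfsf9* (59.4 to 78.3) and 235 CPM (215 to 257), a 3.44-fold difference (2.93 to 4.07). This was the highest level of the counted classes with anti–PD-1, while the PBS interval overlapped that of cDC1. Their share of cells with a UMI was 6.85% and 15.9%. cDC1 went the other way, from 54.6 CPM (39.4 to 73.9) to 23.8 CPM (14.9 to 35.99), 2.30-fold lower (1.34 to 4.04) on 42 and 22 UMIs. This rested on few PBS cells, since 17 of the 42 UMIs came from 1 cell and 88.1% from 5 cells. cDC1 with a *Tnfsf9* UMI numbered 10 of 98 with PBS and 14 of 73 with anti–PD-1, and at equal depth 3 of 97 and 3 of 73. Mature dendritic cells went from 26.0 CPM (10.5 to 53.6) to 233 CPM (185 to 290), in 55 and 47 cells.

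Kupffer cells went from 5.09 to 28.2 CPM of *Tnfsf9* (5.55-fold, 3.58 to 9.02). Of their 246 UMIs with anti–PD-1, 40 came from 1 cell and 73.6% from 5% of the cells, and their share with a UMI at equal depth (0.424% and 1.89%, 1.08 to 3.05) overlapped that of neutrophils in both libraries. The 14 stress genes had median folds of 2.34 in Kupffer cells (8 at least 2-fold higher, beside 4.01% of all genes), 1.88 in cDC2 (7, beside 3.69%) and 4.26 in fibroblasts (11, beside 4.92%). Their part in the *Tnfsf9* values of these classes was not tested. Lymphocytes, which are not the usual source of this ligand, also held more of it, with NK cells and ILC1 going from 19.6 to 57.7 CPM (2.94-fold, 1.83 to 4.98) and CD8 T cells from 7.98 to 25.6 CPM (3.20-fold, 2.12 to 5.04). In neutrophils it went from 14.1 to 17.9 CPM, so the interval of the CD8 level with PBS (5.21 to 11.7) overlapped that of neutrophils (9.28 to 20.5), and the one with anti–PD-1 (22.0 to 29.6) lay above it (14.7 to 21.4). At equal depth, however, the CD8 shares with a UMI (0.967%, 0.443 to 1.83, and 1.69%, 1.08 to 2.53) overlapped those of neutrophils in both libraries (unthinned 2.24% and 9.02%, and 1.77% and 2.51% in neutrophils). Whether neutrophils are a floor for this gene is not known. Plasma cells held 1.90 and 3.75 CPM, but on 3 and 5 UMIs and in far deeper cells, at a median of 13363 and 17052 UMIs. Whether the CD8 and Kupffer cell shares stand above background therefore cannot be decided from this overlap. NK cells and ILC1 had a UMI in 2.18% and 6.90% of cells at equal depth.

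*Tnfsf4*, the ligand of OX40, was scarce. It gave 64 and 90 UMIs in all kept cells, 0.809 and 1.16 CPM, and reached 30 UMIs only in CD8 T cells, at 3.99 and 3.53 CPM (ratio 0.885, 0.436 to 1.88). Mature dendritic cells gave 1 and 7 UMIs, and T cells together 31 and 45. No difference in CD8 T cells was detectable at this depth.

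*Cd70*, the ligand of CD27 on activated lymphocytes and dendritic cells, gave 57 and 45 UMIs in all kept cells. It was read in conventional CD4 T cells alone, where it went from 12.3 CPM (8.28 to 17.5) to 3.95 CPM (2.11 to 6.76), 3.10-fold lower (1.57 to 6.48) on 30 and 13 UMIs. Conventional CD4 T cells held 52.6% of its UMIs with PBS and 28.9% with anti–PD-1. In all T cells together *Cd70* was 2.24-fold lower (1.36 to 3.76), on 42 and 28 UMIs. Male cells gave too few UMIs to read it and did not show the lower level, with 1 and 20 UMIs in T cells (0.870 and 1.90 CPM) and 0 and 10 in conventional CD4 T cells.

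*Cd40lg*, the T cell ligand of CD40, was highest in conventional CD4 and other T cells. Conventional CD4 T cells went from 41.7 CPM (34.01 to 50.6) to 56.3 CPM (48.4 to 65.0), 1.35-fold (1.05 to 1.74), and other T cells stood at 43.7 and 44.6 CPM (ratio 1.02, 0.829 to 1.26). CD8 T cells held 8.90 and 4.52 CPM, 1.97-fold lower (1.15 to 3.36) with anti–PD-1, and a ratio of 0.255 (0.103 to 0.757) on 6 and 26 UMIs among male cells. Tregs gave 7 and 9 UMIs. Monocytes and macrophages stood at 0.727 and 0.334 CPM, the level of stray UMIs, with an interval of the ratio (0.167 to 1.10) that included 1.

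**Figure D4:**
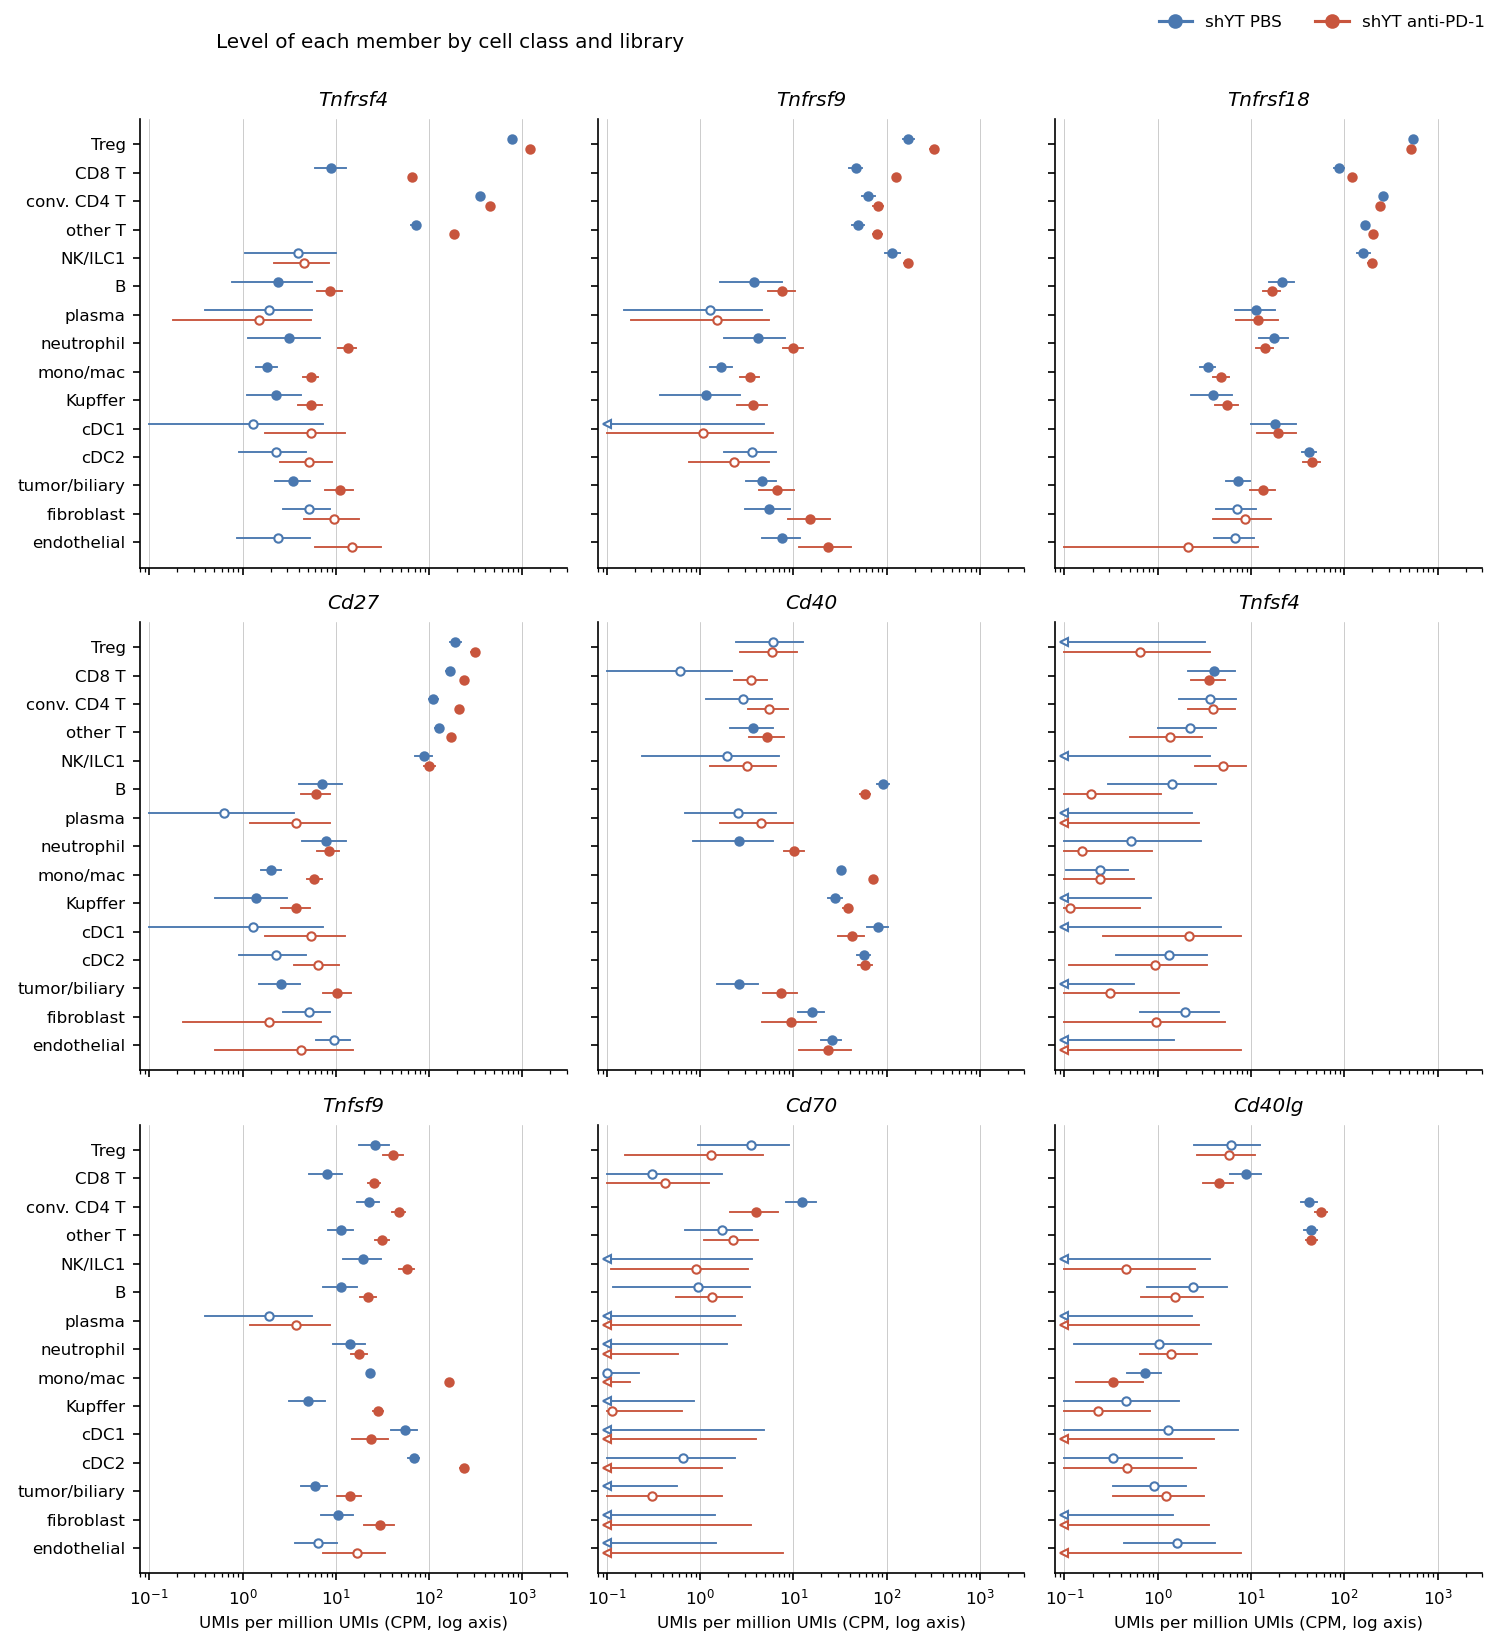
Level of each member in CPM (log axis) by cell class, blue for the PBS library and red for the anti–PD-1 library, with exact 95% Poisson intervals cut at 0.1 CPM. Filled points had at least 30 UMIs over both libraries, open points fewer, and triangles mark 0 UMIs. *Tnfrsf4*, *Tnfrsf9*, *Tnfrsf18* and *Cd27* are high in T cells, *Cd40* and *Tnfsf9* in antigen-presenting cells, and *Tnfsf4* and *Cd70* stay below 20 CPM in every class plotted.

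The cells that held some members' UMIs differed between the libraries. Of *Tnfrsf9* UMIs, CD8 T cells held 13.3% with PBS and 29.9% with anti–PD-1, while Tregs held 17.2% and 16.6%. CD8 T cells also made up more of all kept UMIs, 4.12% with PBS and 9.12% with anti–PD-1, and Tregs 1.45% and 1.99%. Of *Tnfrsf4* UMIs, Tregs held 36.5% and 34.8%, and CD8 T cells 1.18% and 8.67%. Monocytes and macrophages held 52.2% and 59.8% of *Tnfsf9* UMIs, although they made up 41.8% of all kept UMIs with PBS and 27.0% with anti–PD-1.

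**Figure D5:**
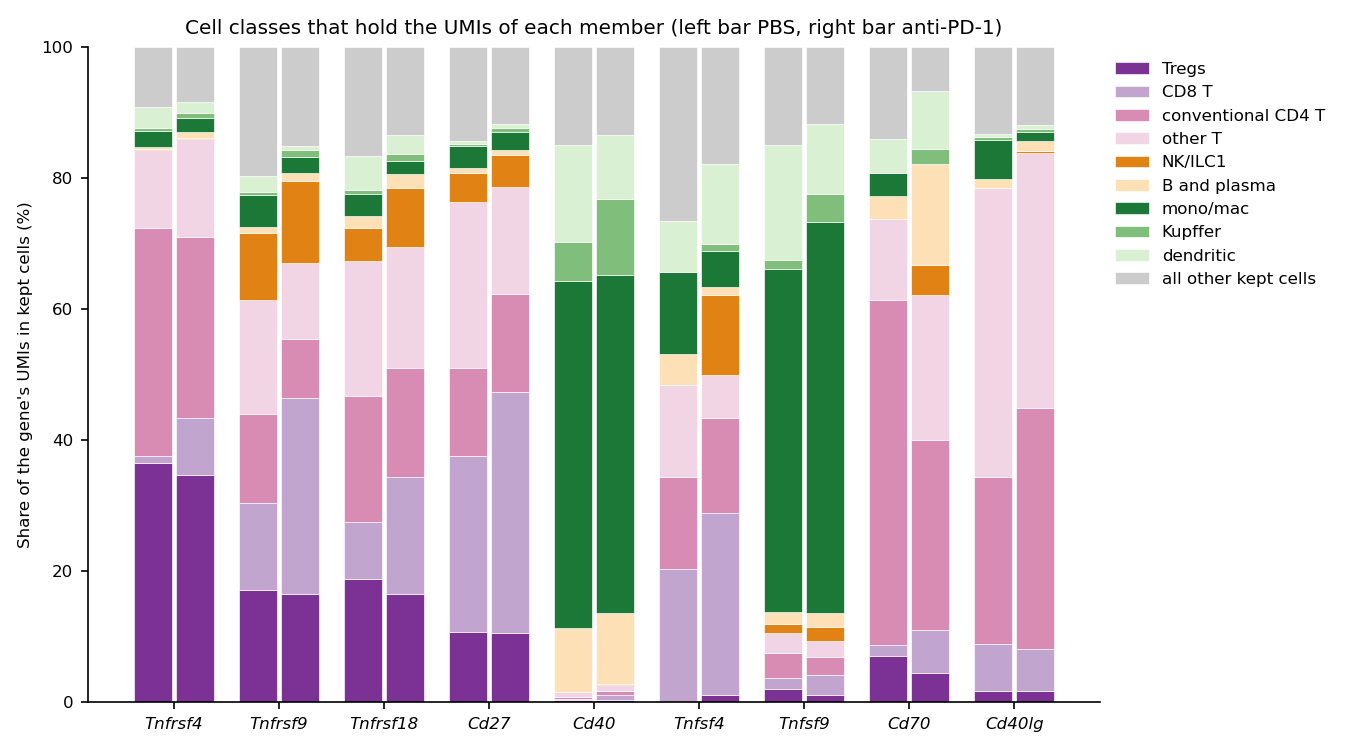
Share of each member's UMIs in kept cells by the class that held them, with the PBS library as the left bar and the anti–PD-1 library as the right bar of each pair. CD8 T cells hold 13.3% and 29.9% of *Tnfrsf9* UMIs, and monocytes and macrophages 52.2% and 59.8% of *Tnfsf9* UMIs. The bars of *Tnfsf4* and *Cd70* rest on 64 and 90 and on 57 and 45 UMIs.

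Other genes of the pathway were read in lists chosen by function. Among 20 TRAF adaptor and NF-κB genes, 3 were at least 2-fold higher in T cells and 0 lower, beside 3.30% and 7.16% of all genes there. They were *Tnfaip3* (159 to 692 CPM, 4.36-fold) and *Nfkbia* (556 to 1208 CPM, 2.17-fold), both inhibitors that NF-κB induces, and *Rel*, an NF-κB subunit (44.8 to 145 CPM, 3.24-fold). The list's median fold was 1.01, beside 0.876 for all genes, so most of its genes did not share the difference. In monocytes and macrophages 5 of 20 were higher and 0 lower, beside 5.63% and 6.37% of all genes. They were led by *Tnfaip3* (8.36-fold), *Nfkbia* (3.42-fold) and *Nfkbie* (2.48-fold), and the list had a median of 1.17 beside 0.883. In B cells 3 of 20 were higher (*Tnfaip3* 4.15-fold, *Rel* 4.05-fold and *Bcl2a1b*, a survival gene, 2.40-fold) and 0 lower, beside 3.57% and 5.66%, while of 6 measured members only *Tnfrsf4*, at 8.71 CPM with anti–PD-1, was 2-fold higher there.

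Of 21 other TNF family genes, 18 were measured in T cells, where 0 were at least 2-fold higher and *Lta*, the gene of lymphotoxin-α, was 2-fold lower (45.2 to 18.2 CPM). Their median fold was 0.737, below the 0.876 of all genes. In T cells as a whole, 1 of 9 members was 2-fold higher (*Tnfsf9*) and 1 lower (*Cd70*), beside 3.30% and 7.16% of all genes, with a members' median of 1.50. Both missed 2-fold in an alternative, *Tnfsf9* ranging from 1.48 (at 1000 UMIs per cell) to 48.1 (neutrophil level taken off) and *Cd70* from 0.372 to 0.759. The 48.1 cannot be read as a size, since the PBS levels of T cells and neutrophils were nearly equal (14.4 and 14.1 CPM). In monocytes and macrophages, 3 of 20 measured were higher and 2 lower, beside 5.63% and 6.37% of all genes, with a list median of 1.00. *Tnfrsf13c* (2.73-fold, at 3.05 CPM), *Tnf* (86.9 to 220 CPM, 2.53-fold) and *Tnfsf10*, the gene of TRAIL (2.32-fold), were higher, and *Tnfrsf10b* (0.402-fold) and *Tnfrsf25* (0.473-fold) lower on at most 47 UMIs in a library. In B cells 2 of 11 measured were higher and 0 lower, beside 3.57% and 5.66% of all genes, with a list median of 0.786. They were *Fasl* (5.68-fold, 2 and 28 UMIs) and *Tnfrsf1b*, a receptor of TNF (27.2 to 59.4 CPM, 2.19-fold).

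In Tregs none of 5 measured members reached 2-fold in either direction, beside 3.90% of all genes higher and 3.74% lower. Of 12 Treg activation genes, 4 were at least 2-fold higher there and 1 lower. *Ctla4*, which strips CD28 ligands from antigen-presenting cells, went from 560 to 1880 CPM (3.36-fold, 3.08 to 3.67), *Il10* from 37.4 to 134 CPM (3.58-fold) and *Gzmb*, the gene of granzyme B, from 14.8 to 74.5 CPM (5.03-fold), while *Itgae*, a tissue retention integrin, went from 199 to 94.6 CPM. *Tnfrsf4* and *Tnfrsf9* in Tregs, at 1.56-fold and 1.88-fold, thus differed less than *Ctla4* did. In T cells as a whole, 3 of 12 Treg activation genes were higher (*Il10*, *Ctla4* and *Gzmb*) and 0 lower. In B cells 4 of 7 measured were higher, led by *Il10* (2.38 to 31.6 CPM, 13.2-fold), *Icos* (4.79-fold) and *Ctla4* (2.78-fold), and in monocytes and macrophages 4 of 10, led by *Il10* (11.9 to 149 CPM, 12.5-fold), *Gzmb* (3.40-fold) and *Ctla4* (3.37-fold), with *Il1rl1* lower (0.281-fold, 28 and 5 UMIs). Of all genes, 3.57% in B cells and 5.63% in monocytes and macrophages were at least 2-fold higher. The 7 T cell gate markers, none at 0, summed to 122 and 190 CPM in B cells and 68.3 and 93.3 CPM in monocytes and macrophages, and their part in these values was not tested.

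Dissociation stress genes were higher as well. Of 14, 5 were at least 2-fold higher in T cells, led by *Atf3* (4.40-fold), *Fosb* (3.22-fold) and *Junb* (2.57-fold), and 3 in B cells, *Atf3* (4.05-fold), *Fosb* (3.66-fold) and *Junb* (2.06-fold), beside 3.30% and 3.57% of all genes. In monocytes and macrophages *Fosb* (5.09-fold), *Atf3* (4.50-fold) and *Dusp1* (4.43-fold) led. The 14 stress genes had a median fold of 1.85 in Tregs and 1.58 in all T cells, and the 7 neutrophil gate markers summed to 268 and 824 CPM in T cells, of which none were at 0. The part of either in the T cell results was not tested.

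The level of each member across classes was compared with that of every other gene that reached 20 CPM in a class, over 30 sums (15 classes in 2 libraries) on the scale of log2(CPM + 5). These sums share their libraries and free RNA, and the correlations are a description. Closest to *Tnfrsf4* were *Izumo1r* (r = 0.971), *A630023P12Rik* and *Ccr8*, and closest to *Tnfrsf9* were *Il2rb* (0.952), *Cst7* and *Gata3*. *Tnfrsf18* was most like *Il18r1* (0.935), *Il2ra* and *Smc4*, and *Cd27* most like *Cd247* (0.979), *Sh2d1a* and *Camk4*. *Cd247* is itself a T cell gate marker, so its level across classes was partly set by the gate. *Cd40* was most like *Plekho1* (0.906), *Lmo2* and *H2-Aa*, and *Tnfsf9* most like *Nfkbie* (0.829), *Bcl2a1d* and *Tnip3*. *Cd40lg* was most like *Il4* (0.899), *Nsg2* and *Tnfsf11*, while *Cd70* (*Gm49180*, 0.931, *Tnfsf11* and *Il21*) and *Tnfsf4* (*Gzmk*, 0.741, *Ccl1* and *Bicdl1*) rest on few UMIs.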

How the data were processed

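Single-cell RNA-Seq libraries were prepared with the Singleron GEXSCOPE kit. The values are raw UMI counts per gene and barcode, which the authors made with Singleron's Cell Scope pipeline on the mm10 reference and deposited. The submitters' processing notes also name Seurat 4.3. The pipeline version, annotation and handling of strand and shared reads are not given in the sources used here. The deposited barcodes had at least 536 UMIs each. Cells were kept if 500 to 5000 genes were detected and mitochondrial UMIs made up at most 10%. Each was assigned to the class with the highest marker score, 3 to 6 markers being required. The T cell subsets were called by single genes instead. Tregs had any *Foxp3* UMI, and conventional CD4 T cells had any *Cd4* UMI and none of *Foxp3*, *Cd8a*, *Cd8b1* or *Trdc*. A Treg without a captured *Foxp3* UMI was therefore read in another subset, which limits the values of conventional CD4 T cells. Cells whose second score reached 0.7 of the first were left out as mixed (621 and 604) unless the classes were close relatives, and no doublet caller was run. The scoring rule was set on these cells. UMIs were summed per class, and 2-fold was the limit for a difference. Gene positions came from GENCODE vM21. The functions were tested on simulated data. Python 3.11.15, NumPy 2.4.6, SciPy 1.17.1 and pandas 2.3.3 were used. The members, lists and named genes (all members with 30 UMIs, up to 3 highest and 3 lowest list genes per class, and the 3 most alike genes) were chosen with earlier results of these data known. The genes set beside *Tnfrsf9* and *Tnfsf9* within a class lie outside that rule and were chosen by function with their values known. List genes in mature dendritic cells were left out, since the class had under 50 cells. The alternatives tried changed the scale, the cell filter, the gate, the depth and the cells compared.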

Additional observations from a re-analysis of the deposited data

Results flagged for a closer look

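*Tnfsf9* was past 2-fold in opposite directions in different classes, and the difference between classes was not tested. It was lower in cDC1, at 0.435-fold on 42 and 22 UMIs, 17 of the 42 being from 1 cell and 88.1% from 5, although cDC1 with a UMI numbered 10 of 98 and 14 of 73. It was higher in monocytes and macrophages (7.06-fold), Kupffer cells (5.55-fold), cDC2 (3.44-fold), CD8 T cells (3.20-fold), NK cells and ILC1 (2.94-fold), fibroblasts (2.78-fold), other T cells (2.76-fold), tumor and biliary epithelial cells (2.38-fold) and conventional CD4 T cells (2.10-fold). The last 4 of these fell under 2-fold in at least 1 alternative, to 1.85, 1.57, 1.75 and 1.90 at the lowest, and cDC1 stood at 0.526 when each cell counted equally. Each class is 1 sum per library, so no sample could be compared with others of its group.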

How the results depend on the processing

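No paired analysis was possible because each group was 1 library and no replicate could be left out. The 28 pairs at least 2-fold higher became 15 with 5 CPM added, 16 (of 47 measured) among male cells (Y-linked UMIs, none of *Xist*), 6 (of 31) when cells were gated and summed at 1000 UMIs each, 11 (of 41) after the neutrophil level was taken off and 11 (of 39) with 30 UMIs in each library, the last 3 settings being chosen after the data were seen. The 3 lower pairs became 1 with 5 CPM added, 6 with a minimum of 10 UMIs 0 of 31 at 1000 UMIs per cell and 0 of 39 with 30 UMIs in each library. At 1000 UMIs per cell 20 of 37 folds moved beyond their counting interval, and the cause was not tested. The other alternatives gave 23 to 33 higher and 2 to 4 lower pairs. Among male neutrophils *Tnfrsf4* had 0 UMIs in 70 PBS cells and 38 UMIs with anti–PD-1, so its ratio was at least 0.623 (3 UMIs set in place of 0), and no direction can be read from this limit (4.27 in all cells). *Tnfsf9* there was at 0.295-fold (0.131 to 0.778) on 7 and 42 UMIs, against 1.27 in all cells. Among male cells 26 of 55 folds moved beyond their counting interval. Of the 28 higher pairs 18, and of the 3 lower pairs all 3, missed 2-fold in at least 1 alternative, among them *Tnfrsf9* in CD8 T cells (1.83 when each cell counted equally). Over the alternatives *Tnfsf9* in monocytes and macrophages ranged from 3.96 to 15.9, *Tnfrsf4* in CD8 T cells from 4.68 to 19.0 and *Cd40* in monocytes and macrophages from 2.04 to 3.19. The 15.9 came from taking off the neutrophil level, which may not be a floor for *Tnfsf9*. The 19.0 came from male cells and rested on 1 UMI in 77 PBS cells (3.39 to 753). Few UMIs limit *Tnfsf4* and *Cd70*, each read in 1 counted class.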
